A study of Homo sapiens with 18 samples.

Results

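The genes described here encode proteins of the centromere, the kinetochore and the spindle assembly checkpoint, together with subunits of the chromosomal passenger complex. They were chosen by name, as 42 gene symbols, and all 42 were found among the 23368 gene rows of the count tables. The tables use older symbols for 3 of them: CENPC1 is CENPC, MLF1IP is CENPU and CASC5 is KNL1. RNA was sequenced from SJSA-1 cells, a human osteosarcoma cell line known for amplified MDM2 and CDK4, in 6 groups of 3 replicates each. Control cells received DMSO. Nutlin, an MDM2 antagonist that releases p53, was given at 20 µM for 6 h (Nutlin), and PD0332991 (Palbociclib), an inhibitor of CDK4 and CDK6, was given at 10 µM for 24 h (PD24) or 30 h (PD30). The combinations of Nutlin with each were N+PD24 and N+PD30. In the study's schedule PD24 cells were freed of PD0332991 for the last 6 h, which is when Nutlin was present in the Nutlin groups. The cells are a single tumor line, and the study describes the 3 replicates of a group as biological triplicates. The labels do not say whether they were separate cultures, and p-values measure the spread between these libraries.

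The centromere is marked by nucleosomes that hold the histone H3 variant CENPA, and a constitutive network of CENP proteins binds them throughout the cell cycle. On this base the KMN network, made of KNL1 and the MIS12 and NDC80 complexes, assembles in mitosis and grips the spindle microtubules. Kinetochores without microtubules keep the checkpoint active, and CDC20, the activator of the anaphase-promoting complex, is then held back until every chromosome is attached. Many of these genes are transcribed mainly in G2 and M phase, and the DREAM complex and RB restrain them in arrested cells through promoter elements called CHR and E2F sites.

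The libraries held between 12704845 and 40231041 counts, with a median of 29608936, and levels are given as CPM, the counts of a gene per 1000000 counts of its library. All 8 markers of the osteosarcoma line had a mean of at least 1 CPM, and 2 of 8 markers of other cell types did, the higher at 1.39 CPM. MDM2, a p53 target, took 0.251% to 0.267% of the counts in DMSO libraries and 1.97% to 2.82% in Nutlin libraries. CDKN1A, the p53 target that encodes p21, had a mean level of 184 CPM ± 38.0 (SD, n = 3) in DMSO and 3984 ± 146 in Nutlin. A gene was called higher or lower in a comparison at a Benjamini-Hochberg adjusted p below 0.05 over all genes tested, with no minimum fold change. Comparisons of groups deposited as counts were fitted with edgeR's quasi-likelihood test, and those with N+PD24 with limma.

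To show the promoter elements through which such genes are known to be restrained, the RefSeq windows from 250 bases before to 50 bases after the start site (GRCh38.p14) were searched on both strands. A window was available for 34 of the 42 genes. The words searched were TTTGAA for CHR, the element bound by DREAM, TTTCCCGC, TTTGGCGC, TTTCGCGC and TTTGCCGC for E2F, and CCAAT for the box bound by NF-Y. The 250 bases before the start site are shown for 5 genes, 5′ to 3′ on the strand of the gene, with every match to these words or their reverse complement in capitals. CENPA (chr2:26785806-26786055) holds all 3 kinds of word. HJURP (chr2:233854536-233854785), CDC20 (chr1:43358731-43358980) and CDCA8 (chr1:37692266-37692515) hold CHR and CCAAT words. Their log2 fold changes in PD30 were -6.50, -5.09 and -6.20. Genes not shown here fell further than CDC20 without both words. The searched windows of NDC80 (-6.58) and NUF2 (-6.28) held a CHR word but no CCAAT word, and that of CENPE (-6.27) held none of the words. MIS12 (chr17:5486124-5486373) holds an E2F word and no CHR word, and is shown because its log2 fold change of -1.09 in PD30 was among the smaller ones. HJURP is on the minus strand of the genome and the other 4 are on the plus strand.
CENPA: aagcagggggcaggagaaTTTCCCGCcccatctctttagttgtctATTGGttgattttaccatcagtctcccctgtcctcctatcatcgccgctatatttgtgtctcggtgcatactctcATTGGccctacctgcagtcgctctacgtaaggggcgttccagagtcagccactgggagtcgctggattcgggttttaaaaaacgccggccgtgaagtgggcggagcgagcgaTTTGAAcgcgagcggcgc
HJURP: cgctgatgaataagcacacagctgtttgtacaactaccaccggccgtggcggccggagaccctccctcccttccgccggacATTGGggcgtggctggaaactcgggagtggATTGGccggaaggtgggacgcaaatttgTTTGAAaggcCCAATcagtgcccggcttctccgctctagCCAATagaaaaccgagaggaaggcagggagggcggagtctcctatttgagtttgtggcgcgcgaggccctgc
CDC20: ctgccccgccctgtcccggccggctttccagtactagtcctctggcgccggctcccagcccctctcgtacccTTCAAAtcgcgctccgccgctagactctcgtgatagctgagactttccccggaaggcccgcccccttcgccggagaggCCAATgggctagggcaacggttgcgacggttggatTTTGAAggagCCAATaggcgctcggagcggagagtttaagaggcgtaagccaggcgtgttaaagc
CDCA8: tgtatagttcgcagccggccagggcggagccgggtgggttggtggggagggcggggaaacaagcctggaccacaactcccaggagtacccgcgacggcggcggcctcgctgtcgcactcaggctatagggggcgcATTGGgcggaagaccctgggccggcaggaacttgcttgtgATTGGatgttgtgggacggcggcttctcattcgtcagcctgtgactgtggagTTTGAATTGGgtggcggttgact
MIS12: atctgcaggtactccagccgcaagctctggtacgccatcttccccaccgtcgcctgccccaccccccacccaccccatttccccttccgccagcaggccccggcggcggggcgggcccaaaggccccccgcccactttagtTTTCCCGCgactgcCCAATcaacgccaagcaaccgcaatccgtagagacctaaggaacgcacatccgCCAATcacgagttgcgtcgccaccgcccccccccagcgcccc

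In CENPA the CHR word spans bases -18 to -13 from the start site, in CDCA8 -23 to -18, where base -18 is shared with a reversed CCAAT word, and in CDC20 -65 to -60, followed by a CCAAT word at -55 to -51. CHR words were present in 17 of the 34 windows (50.0%), against 15.4% of all 27305 windows and 10.1% of the 10346 windows of genes tested in PD30 against DMSO. E2F words were present in 4 windows (11.8%, against 3.33% of all windows and 5.06% of those of tested genes) and CCAAT words in 20 (58.8%, against 35.7% and 36.7%). These shares describe letters in a fixed window, and binding was not measured.

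In DMSO cells the levels of the 42 members added up to 3563 CPM ± 236 (SD, n = 3). Per kilobase of annotated exon, CDC20 was the highest at 95.7 CPM, followed by ZWINT at 66.2 CPM and BIRC5 at 65.7 CPM, and CENPP was the lowest at 0.680 CPM. Together they took 2077 CPM ± 222 in Nutlin, 533 ± 42.1 in PD24, 463 ± 7.07 in PD30, 380 ± 4.94 in N+PD24 and 393 ± 7.06 in N+PD30. The summed level was thus lower in every treated group than in DMSO, and all libraries of the 4 groups with PD0332991 lay below all libraries of the other 2 groups. In bulk RNA, fewer cells of a kind, such as mitotic cells, and less RNA per cell cannot be told apart.

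**Figure D1:**
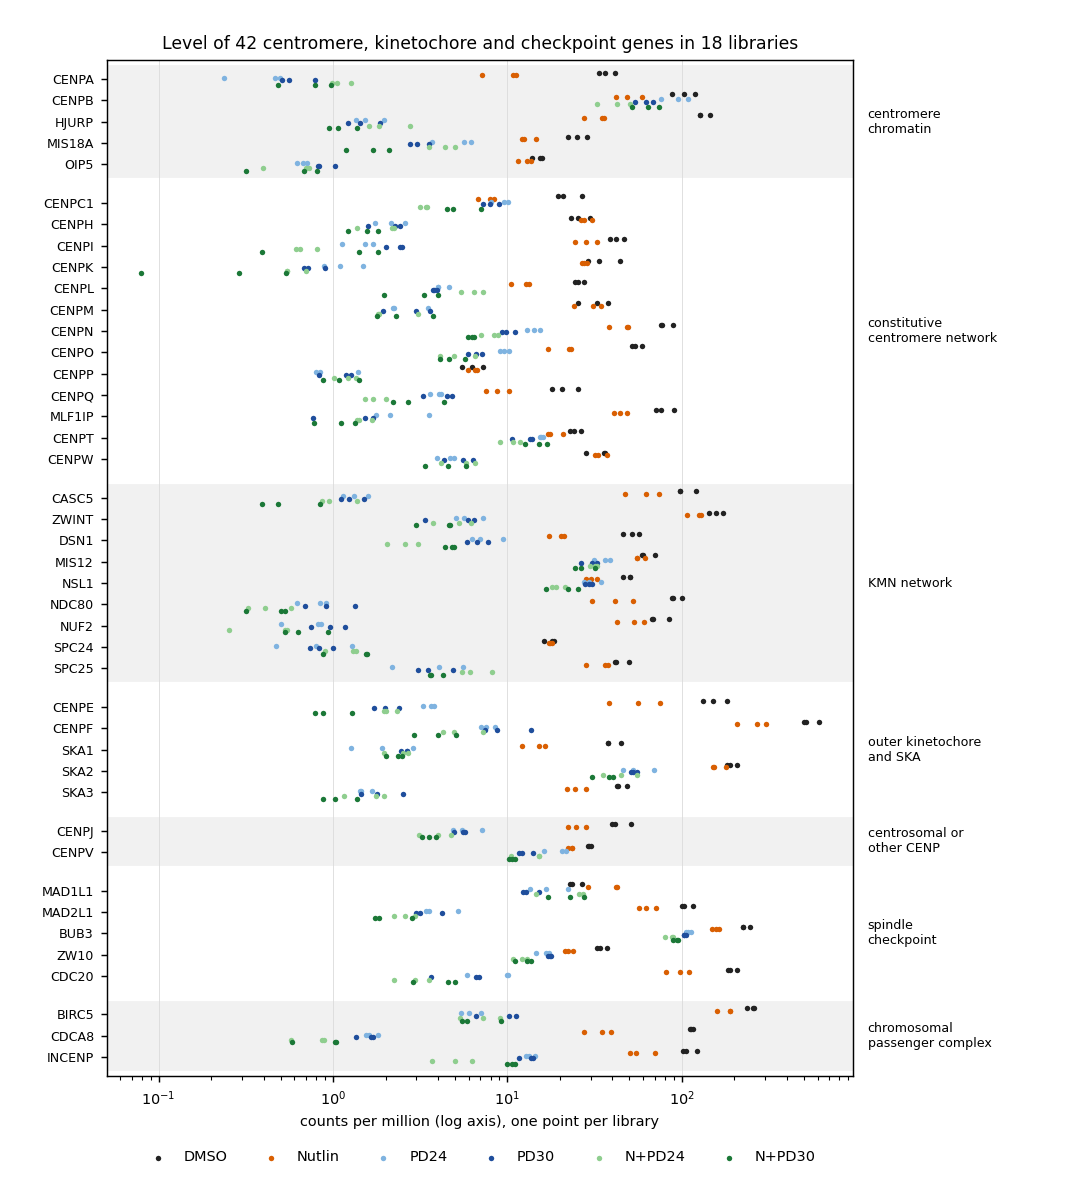
Level of each of the 42 genes in each of the 18 libraries, in CPM on a log axis, ordered by role; each point is a library and colors mark the 6 groups. DMSO and Nutlin points lie to the right for most genes, whereas CENPB, CENPT, MAD1L1, NSL1 and ZW10 keep over 50% of their DMSO mean in PD30.

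To ask what CDK4/6 inhibition does to these genes, PD30 was compared with DMSO. All 42 members were lower in PD30, where 25.4% of the 15125 genes tested were called lower. For all 42 the libraries of the groups did not overlap, which also held for 8660 of the 15125 genes tested. The median log2 fold change of the members was -3.53, with a range from -6.58 (NDC80) to -0.76, whereas the median over all genes tested was 0.00. In PD30 16 members had less than 5% of their DMSO mean, and 5 had more than 50%. The size of the fall differed widely within each complex.

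Among the genes of centromeric chromatin, HJURP, the chaperone that places CENPA, had 127, 128 and 145 CPM in DMSO and 1.86, 1.22 and 1.42 CPM in PD30. That is a log2 fold change of -6.50 ± 0.15 (SE, adjusted p = 3.1e-09, edgeR's quasi-likelihood test). CENPA itself had 33.4, 36.5 and 41.6 CPM in DMSO and 0.792, 0.556 and 0.511 CPM in PD30, a log2 fold change of -5.93 ± 0.18 (SE, adjusted p = 1.1e-08). OIP5 (-4.07) and MIS18A (-3.03), both parts of the MIS18 complex that prepares centromeres for new CENPA, fell less. CENPB, which binds a repeat motif of centromeric DNA, had 119, 103 and 88.1 CPM in DMSO and 54.0, 68.7 and 62.5 CPM in PD30. Its log2 fold change of -0.76 ± 0.13 (SE, adjusted p = 0.0011) was the smallest of the group. The gene span of CENPA overlaps that of SLC35F6 on the same strand in the annotation. Whether this affects its low remaining counts was not tested.

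All 13 members of the constitutive centromere network were lower in PD30, with a median of -3.02. MLF1IP had 71.1, 75.8 and 90.2 CPM in DMSO and 1.69, 1.53 and 0.767 CPM in PD30, and its log2 fold change of -5.92 ± 0.23 (SE, adjusted p = 5.0e-08) was the largest of the network. CENPK (-5.55) and CENPI (-4.22) followed, both subunits of the part of the network that also holds CENPH (-3.65) and CENPM (-3.50). The subunits that tie CENPA nucleosomes to the rest, CENPC1 (-1.49) and CENPN (-3.02), fell less than MLF1IP. CENPT, which recruits the NDC80 complex directly, had 23.0, 24.0 and 26.4 CPM in DMSO and 10.6, 13.9 and 13.4 CPM in PD30. Its log2 fold change was -0.97 ± 0.13 (SE, adjusted p = 2.6e-04), although its partner CENPW had -2.65. The remaining 5, CENPL, CENPO, CENPP, CENPQ and CENPW, lay between -3.08 and -2.37.

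In the KMN network the 4 subunits of the NDC80 complex fell by different amounts. NDC80, the microtubule-binding subunit, had 88.6, 87.5 and 99.7 CPM in DMSO and 1.34, 0.695 and 0.908 CPM in PD30, a log2 fold change of -6.58 ± 0.18 (SE, adjusted p = 6.1e-09). Its partner NUF2 had -6.28, whereas SPC24 and SPC25, which join the complex to the inner kinetochore, had -4.37 and -3.57. CASC5, the scaffold for checkpoint proteins, had -6.37, and its binding partner ZWINT -4.93. The MIS12 complex divided into DSN1 with -2.94, MIS12 with -1.09 and NSL1 with -0.76. NSL1 had 46.0, 50.3 and 50.4 CPM in DMSO and 27.8, 29.3 and 30.5 CPM in PD30, with a standard error of 0.09 and an adjusted p of 1.1e-04. All DMSO libraries of MIS12 and NSL1 remained above all PD30 libraries.

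The genes of the outer kinetochore and the SKA complex were all lower in PD30, with a median of -4.57. CENPE, a kinesin that carries chromosomes to the spindle equator, had 150, 132 and 181 CPM in DMSO and 2.38, 1.72 and 1.99 CPM in PD30 (log2 fold change -6.27 ± 0.17 (SE), adjusted p = 5.3e-09). CENPF, a large coiled-coil protein of the outer kinetochore, had a log2 fold change of -5.80. Of the SKA complex, which tracks microtubule ends, SKA3 had -4.57, SKA1 -3.97 and SKA2 -1.88. SKA2 kept 55.3, 52.3 and 51.2 CPM in PD30 from 181, 190 and 208 CPM in DMSO (SE 0.08, adjusted p = 1.2e-07, edgeR's quasi-likelihood test). CENPJ, a centrosome protein in spite of its name, fell from 39.6, 41.3 and 51.5 CPM to 5.58, 4.92 and 5.71 CPM (-3.04 ± 0.13 (SE), adjusted p = 1.2e-07). CENPV had 29.1, 29.5 and 30.2 CPM in DMSO and 12.1, 14.1 and 11.7 CPM in PD30 (-1.24 ± 0.11 (SE), adjusted p = 1.7e-05).

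The spindle checkpoint genes fell into those with a large and those with a small fall. CDC20 had 206, 188 and 184 CPM in DMSO and 6.89, 6.59 and 3.66 CPM in PD30, a log2 fold change of -5.09 ± 0.21 (SE, adjusted p = 7.9e-08). MAD2L1, the checkpoint protein that binds CDC20, had -4.97. In contrast, BUB3 (-1.17), ZW10 (-0.99) and MAD1L1 (-0.87 ± 0.13 (SE), adjusted p = 4.0e-04), the kinetochore anchor of MAD2L1, fell by about 2-fold. BUB3 kept 104 CPM ± 1.30 (SD, n = 3) in PD30, 44.9% of its DMSO mean. MAD1L1 had 26.9, 23.6 and 22.7 CPM in DMSO and 12.3, 15.2 and 12.9 CPM in PD30. In the chromosomal passenger complex, which corrects faulty attachments, CDCA8 fell from 112, 112 and 116 CPM to 1.69, 1.64 and 1.36 CPM (-6.20 ± 0.11 (SE), adjusted p = 1.7e-09). BIRC5 (survivin) fell from 259, 236 and 257 CPM to 11.2, 10.1 and 6.64 CPM (-4.77 ± 0.18 (SE), adjusted p = 4.0e-08). INCENP, the scaffold of the complex, fell from 122, 102 and 106 CPM to 11.7, 14 and 13.7 CPM (-3.08 ± 0.11 (SE), adjusted p = 3.3e-08).

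The genes with a CHR word in the promoter window had a median log2 fold change of -4.93 in PD30 and those without it -2.54. The medians in Nutlin were -0.87 and -0.24, in the same order. The windows of CENPB, CENPT, NSL1 and MAD1L1, all among the genes that changed least in PD30, held none of the words. Those of CENPE (-6.27 in PD30), CENPI (-4.22), DSN1 (-2.94), CENPP (-2.54) and CENPV (-1.24) also held none. Exceptions were found on both sides, since the windows of ZW10 and CENPC1 held a CHR word and their PD30 values were -0.99 and -1.49, while CENPE and CENPK had neither a CHR nor an E2F word and fell by 6.27 and 5.55 on the log2 scale. MIS12, with its E2F word, had -1.09, whereas OIP5 and MLF1IP, which also held an E2F word without CHR, had -4.07 and -5.92. These medians are descriptions without a test.

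Of 20 other kinetochore and checkpoint genes that are not members, 18 were lower in PD30, with a median of -3.98. The largest falls were AURKB (-6.63), the kinase of the passenger complex, and BUB1B (-6.20). Of the anaphase-promoting complex, the ubiquitin ligase that CDC20 activates, 10 of 17 genes were lower and 1 was higher, with a median of -0.38. The same count was 16 of 16 for G1/S genes (median -4.42) and 16 of 16 for G2/M genes (median -4.91).

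In PD24 against DMSO, which shares its control libraries with the comparison of PD30, 40 members were lower, against 20.8% of all 15094 genes tested, with a median of -3.52. The largest falls were NDC80 (-6.86 ± 0.17 (SE), adjusted p = 9.7e-09), NUF2 (-6.60 ± 0.19 (SE), adjusted p = 2.0e-08) and CENPA (-6.49 ± 0.23 (SE), adjusted p = 6.9e-08). CENPA, with 0.238, 0.464 and 0.497 CPM in PD24, passed the filter on low counts only through its DMSO libraries. Its place among the tested genes is thus no support for a fall. CENPB, with 95, 109 and 76.2 CPM in PD24, and MAD1L1, with 16.6, 22.2 and 13.5 CPM, were not called (log2 fold changes -0.13 and -0.46, adjusted p = 0.57 and 0.085, edgeR's quasi-likelihood test). Without PD24 replicate 2, MAD1L1 was called lower (-0.70).

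**Figure D2:**
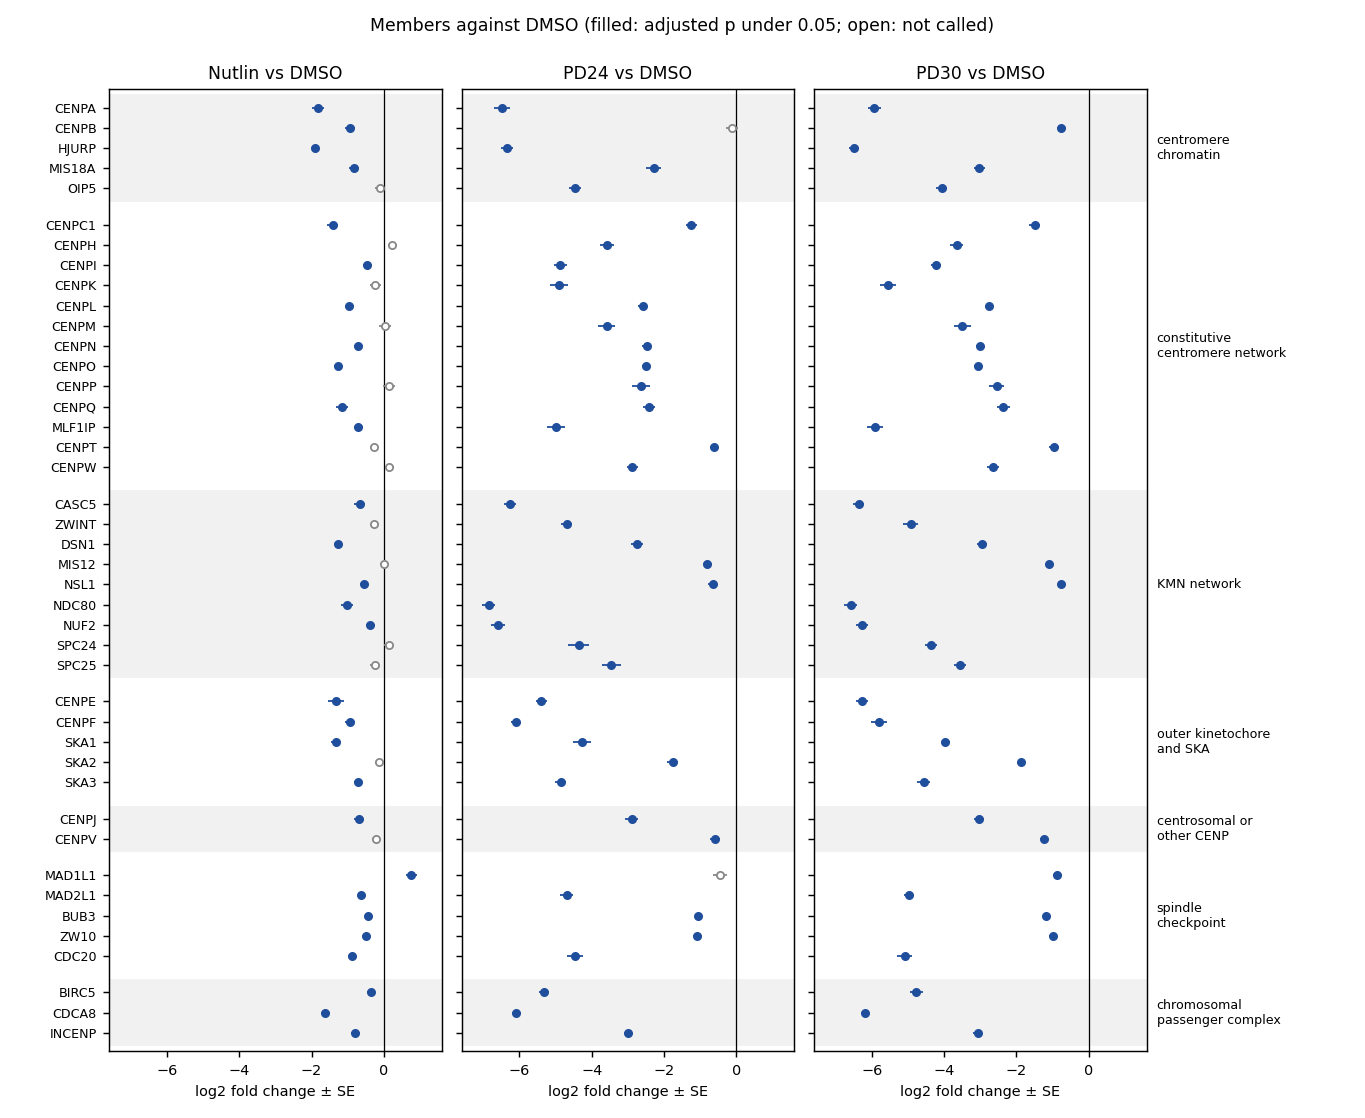
Log2 fold change of each member with its standard error in Nutlin, PD24 and PD30 against DMSO, ordered by role; filled points passed an adjusted p of 0.05 and open points did not. In PD30 all 42 points are filled and below 0; in Nutlin 28 are filled below 0 and MAD1L1 is filled above 0.

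To ask whether 6 h without the drug brought these genes back, PD30 was compared with PD24. Of the 42 members, 6 were lower in PD30 (12.9% of 15171 genes tested were called lower) and none was called higher (12.2% of all genes). The median was -0.11. The 6 genes were CENPE (-0.86 ± 0.19 (SE), adjusted p = 0.011), MIS18A (-0.75 ± 0.23 (SE), adjusted p = 0.041), CENPV (-0.66 ± 0.16 (SE), adjusted p = 0.016), CENPB (-0.63), CENPO (-0.59) and CENPN (-0.53). The call of MIS18A was lost without 5 of the 6 libraries, all but PD24 replicate 3 (adjusted p = 0.053 to 0.13, edgeR's quasi-likelihood test). CENPV, CENPB and CENPN each lost theirs without 3 libraries and CENPO without 2, among which PD30 replicate 3 was shared by all 4, whereas CENPE was called whichever library was left out. MLF1IP had the lowest value of all, -0.93 ± 0.36 (SE), but did not pass (adjusted p = 0.084, edgeR's quasi-likelihood test), with 3.56, 2.11 and 1.76 CPM in PD24. CENPE had 3.63, 3.29 and 3.80 CPM in PD24, MIS18A had 6.14, 5.61 and 3.68 CPM, and CENPV had 20.4, 21.8 and 16.3 CPM. CENPE thus had 2.32% of its DMSO mean after removal of the drug and 1.32% with the drug kept, so that the difference between PD24 and PD30 was small beside the fall from DMSO.

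At the other end CENPI, CENPA and BIRC5 were higher in PD30 than in PD24 by 0.64 ± 0.23, 0.57 ± 0.36 and 0.56 ± 0.22 (log2, SE), with adjusted p of 0.071, 0.27 and 0.088, and did not pass. CENPI had 1.70, 1.52 and 1.12 CPM in PD24 and 2.48, 2 and 2.41 CPM in PD30, and BIRC5 had 5.40, 7.08 and 6.04 CPM in PD24. In both genes the groups differed in mean by a few CPM at most, and only those of CENPI did not overlap. Groups without overlap were found for 6382 of the 15171 genes tested. The numbers of the replicates paired the libraries in this comparison, and with a replicate block 11 members were lower and 2 were higher. Over all genes tested, the block raised the number called from 3816 to 6107 of 15171. The added members were CDC20, CENPT, MIS12, MLF1IP and MAD1L1 among the lower ones, and CENPI and BIRC5, which were the higher ones. Without PD24 replicate 1 or PD30 replicate 1, 2 members were called lower, and without PD30 replicate 3, 1 was lower and 1 (BIRC5) was higher.

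The G1/S list stood apart from the members here. Of its 16 genes, 10 were lower in PD30 than in PD24 and none was higher, with a median of -0.78 and the largest differences in CDT1 (-1.70) and MCM5 (-1.44). Of the 16 G2/M genes, 1 was lower (CKS2, -0.58) and 5 were higher, led by CDC25C (1.35) and HMMR (1.13). The difference between these lists and the members was not tested. Among the 20 other kinetochore and checkpoint genes, CCDC99 (-1.39) and ZWILCH (-0.59) were lower and BOD1 (0.40) was higher.

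**Figure D3:**
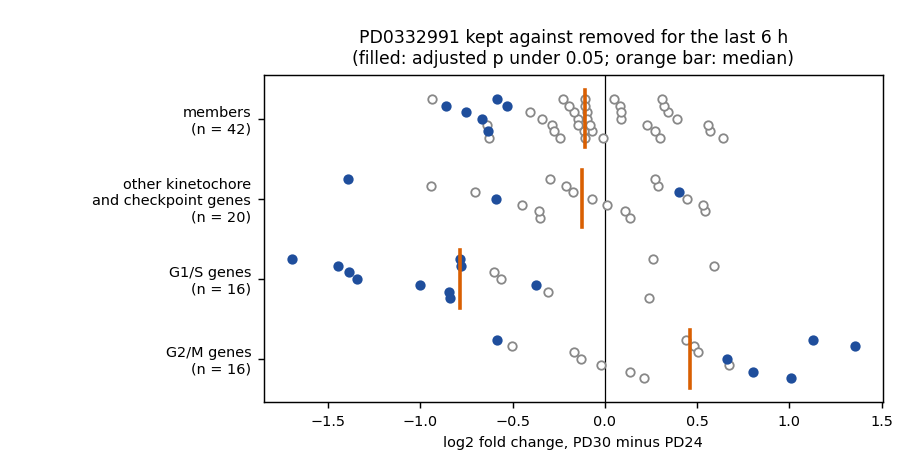
Log2 fold change of PD30 against PD24 for the 42 members and 3 lists; points are genes, filled ones passed an adjusted p of 0.05, and orange bars are medians. The members center near 0 (median -0.11), the G1/S genes lie mostly below 0 (-0.78) and the G2/M genes mostly above it (0.46).

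Nutlin for 6 h lowered 28 of the 42 members and raised 1, where 28.0% of the 15766 genes tested were called lower and 26.6% higher. The median of the members was -0.64, against 0.03 over all genes tested. Of the members, 10 were both called lower and below their DMSO level by more than 2-fold, as were 1327 of the 15766 genes tested. The lowest values were those of HJURP and CENPA, while the other genes of centromeric chromatin ranged from -0.94 (CENPB) to -0.11 (OIP5). HJURP had 34.7, 27.4 and 35.6 CPM in Nutlin (log2 fold change -1.91 ± 0.11 (SE), adjusted p = 2.0e-06, edgeR's quasi-likelihood test), and CENPA had 11.3, 7.16 and 10.7 CPM (-1.81 ± 0.17 (SE), adjusted p = 1.9e-05). CDCA8 came next with 39.0, 27.4 and 34.9 CPM (-1.62 ± 0.12 (SE), adjusted p = 6.7e-06). All Nutlin libraries of these 3 genes lay below all DMSO libraries. The groups also did not overlap for 9742 of the 15766 genes tested. The 8 markers of other cell types also moved in this comparison, with 3 of 5 tested called higher. Their summed level was 2.67 to 3.56 CPM in DMSO, where CD3E was at 0, and 7.15 to 8.19 CPM in Nutlin, and their part in the result was not tested. ALB, among these markers, had a mean of 0.0108 CPM in DMSO and 2.33 in Nutlin. It passed the filter on low counts only through its Nutlin libraries, so its place among the tested genes is no support for a rise.

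Within the complexes the responses to Nutlin were uneven. CENPC1 (-1.41), CENPO (-1.27), CENPQ (-1.15) and CENPL (-0.96) were lower in the constitutive network, whereas CENPH (0.24), CENPM (0.03), CENPP (0.14) and CENPW (0.14) were not called. In the KMN network DSN1 (-1.27) and NDC80 (-1.02) were lower, while MIS12 (-0.01) and SPC24 (0.13) were not called. CENPE (-1.32), SKA1 (-1.33), CENPF (-0.93) and SKA3 (-0.72) were lower, and SKA2 (-0.13) was not called. CDC20 had 110, 80.9 and 98.1 CPM (-0.87) and BIRC5 had 188, 159 and 190 CPM (-0.36). NUF2 was called lower (-0.37), but without DMSO replicate 2 or 3 or Nutlin replicate 2 or 3 it was not called (-0.25 to -0.42).

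CENPB was lower with Nutlin and MAD1L1 was higher. CENPB had 41.8, 48.4 and 58.8 CPM (-0.94 ± 0.14 (SE), adjusted p = 3.5e-04), beside -0.76 in PD30; the difference between these values was not tested. MAD1L1 was the member that rose, to 29.2, 42.2 and 42.1 CPM (0.76 ± 0.15 (SE), adjusted p = 0.0019). All its Nutlin libraries lay above all DMSO libraries, in a comparison where 9742 of the 15766 genes tested had groups that did not overlap. OIP5, with 13.7, 11.5 and 12.9 CPM, was not called (-0.11, adjusted p = 0.47), in contrast to its value of -4.07 in PD30. Of the other kinetochore and checkpoint genes 14 of 20 were lower (median -0.82), led by SGOL2 (-1.51) and PLK1 (-1.34), and 12 of 16 G1/S genes (median -0.97) and 13 of 16 G2/M genes (median -0.64) were lower.

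In cells with Nutlin, PD0332991 again lowered nearly all members. In N+PD30 against Nutlin 40 were lower, against 24.7% of 15721 genes tested, with a median of -3.09. The largest falls were CASC5 (-6.65 ± 0.27 (SE), adjusted p = 2.8e-08), NDC80 (-6.49 ± 0.28 (SE), adjusted p = 4.5e-08) and CENPK (-6.31 ± 0.30 (SE), adjusted p = 6.5e-08). CENPK had a count of 1 in N+PD30 replicate 1, the library of lowest depth, which was the lowest count of any member. It had 27.3, 26.9 and 28.7 CPM in Nutlin and 0.0787, 0.538 and 0.291 CPM in N+PD30. NDC80 had 0.315, 0.504 and 0.533 CPM in N+PD30. Both genes passed the filter on low counts only through their Nutlin libraries. Their place among the tested genes is thus no support for a fall. CENPB (0.32) and CENPT (-0.35) were not called (adjusted p = 0.15 and 0.093, edgeR's quasi-likelihood test). Without N+PD30 replicate 3 CENPB was called higher (0.47), and without N+PD30 replicate 1 CENPT was called lower (-0.47). Of the markers of other cell types, 3 of 5 tested were lower here, with a summed level of 2.86 to 3.94 CPM in N+PD30, and their part was not tested. Markers can pass the filter through their Nutlin libraries alone, so these calls are no support for a fall. CENPC1 (-0.53) was called, but not without Nutlin replicate 1, 2 or 3 or N+PD30 replicate 1 or 2 (-0.61 to -0.44).

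In N+PD24 against Nutlin 41 were lower, against 17.7% of 15262 genes tested, with a median of -2.78. The largest falls were NUF2 (-6.19 ± 0.22 (SE), adjusted p = 9.0e-08, limma), NDC80 (-5.85 ± 0.22 (SE), adjusted p = 1.0e-07) and CASC5 (-5.48 ± 0.20 (SE), adjusted p = 9.9e-08). These values are on the log2(CPM + 0.25) scale, which understates changes of genes near 0. NUF2 had 60.5, 42.3 and 53.3 CPM in Nutlin and 0.533, 0.541 and 0.253 CPM in N+PD24. NDC80 had 52.8, 30.5 and 41.1 CPM in Nutlin and 0.410, 0.325 and 0.578 CPM in N+PD24. Both passed the filter of 0.5 CPM in 3 libraries only through Nutlin. Their place among the tested genes is thus no support for a fall. CENPB (-0.18, adjusted p = 0.41) was not called. MAD1L1 (-0.70) was called, but not without Nutlin replicate 2 or 3 or N+PD24 replicate 1 (-0.64 to -0.46).

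To ask what Nutlin adds in cells already under PD0332991, N+PD30 was compared with PD30. Of the members 4 were lower (5.64% of 15077 genes tested were called lower) and 1 was higher (8.84% of all genes). CENPF had 2.91, 5.04 and 4.02 CPM in N+PD30 and 13.6, 7.42 and 8.72 CPM in PD30 (-1.18 ± 0.26 (SE), adjusted p = 0.023, edgeR's quasi-likelihood test). CENPE (-0.90 ± 0.25 (SE), adjusted p = 0.048), CENPN (-0.60 ± 0.13 (SE), adjusted p = 0.024) and SKA2 (-0.45) were the other lower genes. MAD1L1, with 27.6, 22.7 and 17.0 CPM, was higher (0.83 ± 0.20 (SE), adjusted p = 0.030), which is the direction of its response to Nutlin alone. The replicate numbers paired these libraries only in part (correlations of 0.19, 0.33 and 0.75), since the best match of replicate 2 was number 1. With a replicate block 11 members were lower, with CDCA8, NSL1, ZW10, CENPJ, DSN1, MIS18A and CENPC1 added, and 1 was higher. Over all genes tested, the block raised the number called from 2183 to 4375 of 15077. Without the block, leaving out single libraries ended most of the members' calls. None was lower without PD30 replicate 1 or N+PD30 replicate 1 or 2, and 1 was lower without PD30 replicate 2 or 3. MAD1L1 was called without PD30 replicate 2 and without N+PD30 replicate 3 only.

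The same question was asked after removal of PD0332991. In N+PD24 against PD24 13 were lower (20.2% of 14897 genes tested were called lower) and 3 were higher (16.7% of all genes). CENPA rose from 0.238, 0.464 and 0.497 CPM in PD24 to 0.984, 1.27 and 1.05 CPM in N+PD24 (1.18 ± 0.24 (SE), adjusted p = 0.0033, limma). SPC25 (0.92 ± 0.29 (SE), adjusted p = 0.031) and CENPL (0.71 ± 0.17 (SE), adjusted p = 0.0080) were the others that rose. SPC25 was not called with library totals in place of TMM factors (0.78) or without a filter on low values (0.87). The CENPA level in N+PD24 was 2.96% of its DMSO mean. CENPA passed the filter of 0.5 CPM in 3 libraries only through its N+PD24 libraries, so its place among the called genes is no support for a rise. Without a filter on low values its log2 fold change was 1.15 and it was called as well. The SPC25 libraries of the groups overlapped. The largest falls were DSN1 (-1.33 ± 0.21 (SE), adjusted p = 8.6e-04), CDC20 (-1.33 ± 0.25 (SE), adjusted p = 0.0023) and INCENP (-1.28 ± 0.19 (SE), adjusted p = 5.5e-04), followed by CENPC1 (-1.25) and CENPB (-1.01).

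CDC20 had 9.88, 10.1 and 5.89 CPM in PD24 and 2.95, 3.55 and 2.24 CPM in N+PD24, and INCENP had 12.8, 14.5 and 13.4 CPM and 3.69, 5.04 and 6.25 CPM. The groups did not overlap in either gene, which also held for 7492 of the 14897 genes tested. The replicate numbers paired these libraries, and with a replicate block 15 members were lower, with CENPK and CENPV added, and 5 were higher, with CENPW and MAD1L1 added. Over all genes tested, the block raised the number called from 5504 to 7938 of 14897. Without PD24 replicate 1 or N+PD24 replicate 2, 8 members were lower, and without N+PD24 replicate 2 or 3, 1 was higher. The call of SPC25 was also absent without PD24 replicate 2 or 3, whereas CENPL was called whichever library was left out. CENPA was called without each PD24 library, but was not tested without any of the N+PD24 libraries, since it then missed the filter. Among the lower genes, CENPT lost its call whichever of the 6 libraries was left out, and CENPE and CENPI lost theirs for 5 of the 6. The 8 markers of other cell types summed to 2.40 to 3.16 CPM in PD24, where CD3E was at 0, and 5.45 to 6.74 CPM in N+PD24, with 3 of 4 tested called higher, and their part was not tested. ALB, among these markers, had a mean of 0.00829 CPM in PD24 and 1.06 in N+PD24. It passed the filter only through its N+PD24 libraries, so its place among the tested genes is likewise no support for a rise.

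The combinations were also compared with each other. In N+PD30 against N+PD24, 6 members were lower (16.1% of 14945 genes tested were called lower) and 2 were higher (16.0% of all genes). MIS18A (-1.38 ± 0.23 (SE), adjusted p = 0.0020, limma), CENPL (-1.14 ± 0.24 (SE), adjusted p = 0.0065) and CENPE (-1.06 ± 0.22 (SE), adjusted p = 0.0065) had the largest differences, followed by SPC25 (-0.85), HJURP (-0.83) and CENPN (-0.48). The call of CENPN ended without 5 of the 6 libraries (all but N+PD24 replicate 1; -0.49 to -0.42), with library totals (-0.36) and without a filter on low values (-0.45). That of HJURP ended without 4 of them (N+PD24 replicates 2 and 3, N+PD30 replicates 1 and 3; -0.91 to -0.63) and without a filter on low values (-0.81). MIS18A had 1.18, 2.08 and 1.69 CPM in N+PD30 and 3.57, 4.36 and 4.98 CPM in N+PD24, and CENPL had 1.97, 3.33 and 4.02 CPM and 5.45, 6.47 and 7.22 CPM. INCENP (0.96 ± 0.19 (SE), adjusted p = 0.0053) and DSN1 (0.73 ± 0.19 (SE), adjusted p = 0.018) were higher in N+PD30. Of the 19 other kinetochore and checkpoint genes tested, 5 were lower, led by ERCC6L (-2.78) and CCDC99 (-2.32), and 3 were higher, led by PLK1 (0.88) and BOD1 (0.84). The markers of other cell types were lower for 3 of 5 tested, and their part was not tested. Markers can pass the filter through their N+PD24 libraries alone, so these calls are no support for a fall. Without N+PD24 replicate 2, 3 members were lower and 1 was higher. Without N+PD30 replicate 1, 5 were higher, and without N+PD30 replicate 2, 1 was higher.

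An interaction term, fitted over the 12 libraries of 4 groups, asked whether Nutlin acted differently once PD0332991 had been given. It is the log2 fold change with Nutlin under PD0332991 minus that in its absence. For PD30, 12 members had a higher interaction term and none a lower one, where 12.8% of the 16113 genes tested were called higher. The largest were CENPA (2.27 ± 0.37 (SE), adjusted p = 0.0012, edgeR's quasi-likelihood test), HJURP (1.70 ± 0.24 (SE), adjusted p = 5.4e-04) and SKA1 (1.28 ± 0.20 (SE), adjusted p = 0.0010). CENPA fell to 26.1% of its DMSO mean with Nutlin alone, but had 0.620 CPM ± 0.151 (SD, n = 3) in PD30 and 0.749 ± 0.247 in N+PD30. Its log2 fold change with Nutlin was -1.81 without PD0332991 and 0.40 ± 0.34 (SE) during PD30. CENPB (1.12) had 61.8 CPM ± 7.38 in PD30 and 63.3 ± 11.4 in N+PD30, and BUB3 (0.42) had 104 ± 1.30 and 92.7 ± 3.12. Without Nutlin replicate 2, 7 of the members were called. Leaving out single libraries ended the call of CENPT for 8 of the 12 libraries, of CENPL for 6, of CDCA8 and INCENP for 5 each and of BUB3 for 2, and CENPT was also not called with DESeq2 size factors (0.60).

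For PD24, 4 members had a higher interaction term and none a lower one, where 0.710% of 15642 genes tested were called higher. They were CENPA (2.99 ± 0.29 (SE), adjusted p = 2.8e-04, limma), HJURP (2.33 ± 0.26 (SE), adjusted p = 7.0e-04), SKA1 (1.73 ± 0.31 (SE), adjusted p = 0.018) and CENPL (1.66 ± 0.18 (SE), adjusted p = 7.2e-04). The CENPA term includes its difference between N+PD24 and PD24, where its means were 1.10 and 0.399 CPM. It was under 0.5 CPM in every PD24 library, where the added 0.25 weighs on the log2 value. The size of this term is therefore uncertain. HJURP had 1.97, 1.35 and 1.52 CPM in PD24 and 1.6, 2.76 and 1.84 CPM in N+PD24, and SKA1 had 2.89, 1.26 and 1.91 CPM and 1.97, 2.52 and 2.71 CPM. The libraries of PD24 and N+PD24 overlapped in both genes, and neither was called in N+PD24 against PD24 (0.43 and 0.41). CENPL had 4.62, 4 and 4 CPM in PD24 and was called higher in N+PD24. SKA1 was not called without DMSO replicate 2 or 3, Nutlin replicate 2 or N+PD24 replicate 2 (1.61 to 1.77).

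**Figure D4:**
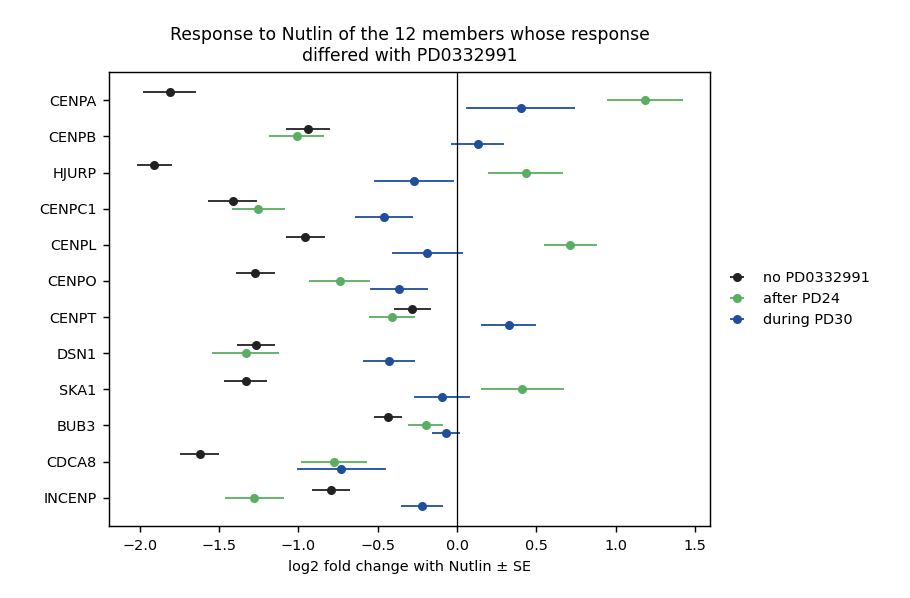
Log2 fold change with Nutlin and its standard error for the 12 members with a called interaction term, without PD0332991 (black), after PD24 (green) and during PD30 (blue). CENPA, HJURP, CENPL and SKA1 are near -1 to -2 without PD0332991 and above 0 after PD24; CENPB, CENPC1, DSN1 and INCENP fall with Nutlin both without PD0332991 and after PD24, and lie between -0.46 and 0.13 during PD30.

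The members lie on 19 chromosomes. In the annotation (GENCODE on GRCh37), 13 of them share bases with a coding gene on the opposite strand and 2 with a coding gene on the same strand, CENPA with SLC35F6 and MAD1L1 with an unnamed gene model. These overlaps are of whole gene spans, and overlap of exons was not examined. The study's counting used a strand setting for reverse-stranded libraries, and the library kit is not stated to keep the strand. Where exons overlap, reads of such pairs may thus not be fully told apart. OIP5 lies opposite NUSAP1, itself a mitotic gene.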

How the data were processed

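The authors aligned reads with TopHat and Bowtie 2 to hg19 and counted them per gene with HTSeq 0.6.0, and the counts were deposited unscaled for 5 groups. The N+PD24 libraries were deposited as a signal, counts divided by a constant per library, from which whole reads were recovered within 0.001 read. Tables of scaled copies and of the authors' own fold changes and p-values were not used. Counts were fitted with edgeR 4.0.16 (quasi-likelihood test, TMM factors, its expression filter), and comparisons with N+PD24 with limma 3.58.1 on log2(CPM + 0.25), for genes at 0.5 CPM or more in 3 libraries. DESeq2 1.42.0, other scalings, filters and pseudocounts, a replicate block and leaving out each library were tried. The scripts were tested on simulated data. Adjusted p-values (Benjamini-Hochberg) cover all genes tested.

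Libraries with the same number deviated together (every correlation over 0.1) in PD30 against PD24, N+PD24 against Nutlin, N+PD30 against PD30 and N+PD24 against PD24, and this pairing comes from the data, not the labels. In N+PD30 against PD30 it was partial, since the best match of replicate 2 was number 1. Levels in every library are given for CENPA, BIRC5, CDC20, the members of each role with the largest and smallest change in PD30 against DMSO, and the 3 lowest and 3 highest in PD30 against PD24; errors are given for these and the 3 largest called changes in each direction elsewhere, and other named levels were added after the values were seen. Members and lists were chosen with earlier results of these data known. Intervals for counting error are not given, since libraries were replicated.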

Additional observations from a re-analysis of the deposited data

Results flagged for a closer look

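The response to Nutlin differed with PD0332991 by an interaction term in 12 members. During PD30 the term (log2, response with PD0332991 minus response without it, edgeR's quasi-likelihood test) was 2.27 for CENPA, 1.70 for HJURP, 1.28 for SKA1, 1.12 for CENPB, 1.00 for CENPC1, 0.95 for CENPO, 0.94 for CDCA8, 0.89 for DSN1, 0.83 for CENPL, 0.65 for CENPT, 0.62 for INCENP and 0.42 for BUB3. After PD24 (limma) it was 2.99 for CENPA, 2.33 for HJURP, 1.73 for SKA1 and 1.66 for CENPL, the 4 members called. Of all 15642 genes tested there, 0.710% were called higher. With PD30 the call of CENPT ended without 8 of the 12 libraries (0.53 to 0.70), that of CENPL without 6 (0.65 to 0.86), those of CDCA8 (0.71 to 0.95) and INCENP (0.53 to 0.61) without 5 each, and that of BUB3 without 2 (0.38 to 0.40), and with PD24 that of SKA1 ended without 4 (1.61 to 1.77). Both terms share the DMSO and Nutlin libraries.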

How the results depend on the processing

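Of 3654 values of 287 member results under alternatives, 3384 kept direction and side of the threshold, 202 lost the call, 68 gained it and 0 reversed. The cause of the changes below was not tested, except that a fold minimum can only remove calls. With a change over 2-fold required as well, the members called lower and higher were 10 and 0 in Nutlin against DMSO, 1 and 0 in N+PD30 against PD30, 5 and 1 in N+PD24 against PD24, and 3 and 0 in N+PD30 against N+PD24; 0 were lower in PD30 against PD24 and 5 had a higher interaction term with PD30. The genes called were then 3277 (Nutlin against DMSO), 2305 (PD30 against DMSO), 1898 (PD24 against DMSO), 1137 (PD30 against PD24), 3510 (N+PD30 against Nutlin), 1633 (N+PD24 against Nutlin), 555 (N+PD30 against PD30), 1991 (N+PD24 against PD24), 1706 (N+PD30 against N+PD24) and 1647 (interaction with PD30). With the replicate block, 11 members were lower and 2 higher in PD30 against PD24 (6107 genes called), 11 were lower in N+PD30 against PD30 (4375 genes), 5 were higher in N+PD24 against PD24 (7938 genes), and 8291 genes were called in N+PD24 against Nutlin, where no member's call changed. Where the numbers did not pair the libraries, the block added MAD1L1 in PD24 against DMSO, CENPF and CASC5 in N+PD30 against N+PD24 and CENPQ in the interaction with PD30, and raised the genes called in the interaction with PD24 from 200 to 379, where edgeR on the recovered reads, without the block, called 116. With library totals in place of TMM factors, 7 members were lower in N+PD30 against PD30 and 4 were higher in N+PD30 against N+PD24; the members' median shifted by -0.12 in Nutlin against DMSO, -0.14 in N+PD24 against PD24 and 0.11 in N+PD30 against N+PD24. Without single libraries, the members called lower and higher ranged from 1 to 9 and 0 to 1 in PD30 against PD24 (2178 to 4117 genes), 0 to 4 and 0 to 2 in N+PD30 against PD30 (583 to 3384 genes), 8 to 11 and 1 to 3 in N+PD24 against PD24 (3121 to 4601 genes), and 3 to 7 and 1 to 5 in N+PD30 against N+PD24 (2712 to 4641 genes). The members called higher ranged from 0 to 1 in N+PD30 against Nutlin and 7 to 12 in the interaction with PD30, and the genes called in the interaction with PD24 from 60 to 144. Depth limits values near 1 CPM, where 1 count was the lowest of any member.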
